A study of Mus musculus with 5 samples.

Results

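Protease inhibitor genes, 9 of the 22180 mouse genes with an array row of their own, were followed over the days in which cultured bone marrow macrophages become osteoclasts, large cells with many nuclei that dissolve bone. They were chosen by symbol, from rows whose annotation names exactly 1 gene: the cysteine protease inhibitors Ctla2a, Ctla2b, Cst3, Cst7 and Cstb, the small serine protease inhibitor Slpi, and the serpins Serpinb6a, Serpinb8 and Serpinb9. Ctla2a and Slpi were picked because falls had been seen in their values, so what follows describes these arrays and tests nothing. Marrow cells came from wild-type mice aged 10 weeks and were kept on plastic, in M-CSF at 20 ng/ml, which keeps macrophages alive, plus RANKL at 30 ng/ml, the signal that turns them into osteoclasts. The macrophages were taken at day 0, differentiating cells at days 1, 2 and 3, and cells labelled mature osteoclasts at day 5. Each day had 1 Affymetrix array made from 5 ng of total RNA, so 5 arrays stand for 5 days, no p-value or spread between cultures can be given, and this number limits how precise any value can be. Cells cultured without RANKL were not analysed here, so the action of RANKL and the length of culture cannot be told apart.

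Protease inhibitors hold in check the enzymes that macrophages and osteoclasts use to break down protein. Cystatins block papain-like cysteine proteases, the class of the cathepsins: cystatin C (Cst3) is secreted, cystatin B (Cstb) works in the cytosol and nucleus, and cystatin F (Cst7) is targeted to lysosome-like compartments. Ctla2a and Ctla2b encode small proteins that resemble the propeptide by which a cathepsin zymogen blocks its own active site. Serpins trap a serine protease, or in some cases a cysteine protease, by a change of shape that destroys the enzyme. The clade B serpins studied here act mainly inside cells, whereas Slpi is a secreted inhibitor of neutrophil elastase and cathepsin G. Osteoclasts owe their resorptive power above all to a cysteine protease, cathepsin K.

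Values are log2 expression levels as deposited, and a difference of 1 is 2-fold. Genes are called measured where the mean of their 5 values reached 4.89, the median of all row means. That left 12049 genes, with all 9 inhibitors among them. A gene can pass by its mean and still be below the filter level on single days, as was Ctla2a at day 3 (4.88). Array medians lay between 4.88 and 4.92. The only yardstick of noise is the disagreement between rows of one gene, which had an SD of 0.60 in the difference of day 5 from day 0 over 442 genes with 2 measured rows. It does not cover the spread between cultures, and a difference below it is not thereby shown to be absent. For ranges over the arrays, other days or gaps between genes it gives only a scale. In bulk RNA, fewer cells of a type and less RNA per cell cannot be told apart. Osteoclast markers went with the labels: all 10 (Acp5, Atp6v0d2, Calcr, Car2, Ctsk, Dcstamp, Itgb3, Mmp9, Ocstamp and Oscar) exceeded their day 0 value by 2-fold or more at day 5, with a mean level that went from 5.67 at day 0 to 11.8. The 9 macrophage markers had a mean level of 11.4, 10.1, 9.85, 10.2 and 10.4 at days 0, 1, 2, 3 and 5, so macrophage transcripts were still present in the day 5 culture.

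Ctla2a and Ctla2b are nearby genes that both lay far below their day 0 level on every later array. Their RefSeq promoter windows are shown because they are largely the same sequence. On GRCm38.p6, Ctla2a spans chr13:60934155-60936625 and Ctla2b chr13:60895351-60897934. The RefSeq promoter windows run from 250 bases before the start to 50 after it, both on the minus strand, at chr13:60936576-60936875 for Ctla2a (the first of 2 windows listed) and chr13:60897398-60897697 for Ctla2b. The Ctla2b window lies wholly inside the gene span given above, so it belongs to a start within that span. Serpinb8 (gene at chr1:107589926-107608978), the inhibitor with the largest positive difference at day 5 among the rows used (the brightest row of each gene), is set beside them with its window chr1:107589756-107590055 on the plus strand. All are printed 5′ to 3′, with each match to TGANTCA, the consensus of the AP-1 factors that act downstream of RANKL, in capitals.
Ctla2a: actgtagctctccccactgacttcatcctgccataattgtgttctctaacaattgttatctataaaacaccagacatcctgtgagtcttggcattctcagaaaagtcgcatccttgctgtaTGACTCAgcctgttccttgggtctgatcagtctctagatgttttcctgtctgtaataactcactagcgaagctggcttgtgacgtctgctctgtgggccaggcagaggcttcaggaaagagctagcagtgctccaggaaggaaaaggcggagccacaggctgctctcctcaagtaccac
Ctla2b: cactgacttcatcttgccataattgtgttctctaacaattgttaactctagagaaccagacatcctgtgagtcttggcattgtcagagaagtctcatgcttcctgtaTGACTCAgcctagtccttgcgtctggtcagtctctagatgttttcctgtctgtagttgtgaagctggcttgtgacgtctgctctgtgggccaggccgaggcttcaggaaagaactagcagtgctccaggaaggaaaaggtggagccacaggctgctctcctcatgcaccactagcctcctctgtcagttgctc
Serpinb8: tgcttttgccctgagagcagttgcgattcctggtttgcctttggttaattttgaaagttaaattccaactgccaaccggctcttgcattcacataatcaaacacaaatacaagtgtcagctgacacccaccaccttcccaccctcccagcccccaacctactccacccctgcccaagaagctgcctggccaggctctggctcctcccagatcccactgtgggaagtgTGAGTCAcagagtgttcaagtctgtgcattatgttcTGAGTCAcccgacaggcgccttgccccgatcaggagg

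Aligned with each other, the Ctla2a and Ctla2b windows paired 278 bases, of which 256 (92.1%) were identical. Each held 1 TGANTCA match, whose first base lay 129 bases before the start in Ctla2a and 143 bases before it in Ctla2b. Serpinb8 held 2, at 23 bases before the start and at base 14 after it. The motif reads the same on both strands, and 7.93% of 27025 promoter windows of equal length held it. Of the other inhibitors with a window, Cst7 held 1 match, while Slpi, Cst3, Serpinb6a and Serpinb9 held none. The shorter NFAT core GGAAA, searched on both strands, occurred 3 times in each Ctla2 window and was present in 61.3% of all windows. Among the other inhibitors, Cst3 held it 3 times, Cst7 and Serpinb9 2 times each, and Serpinb8 and Slpi 0 times. The 2 windows of Serpinb6a held it 4 times and 1 time, so it did not set the Ctla2 genes apart. A match describes the letters and shows no binding, and the part of either motif in the levels of these genes was not tested.

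**Figure D1:**
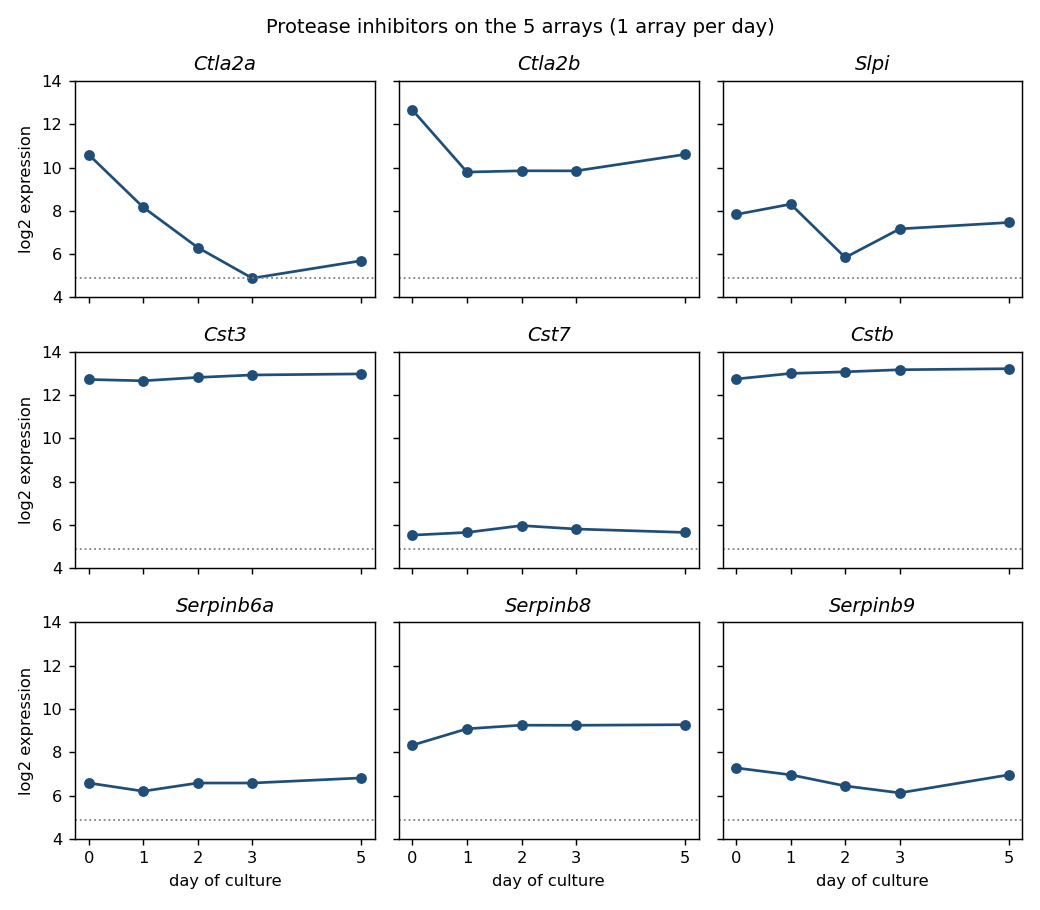
Log2 expression (vertical axis) of the 9 protease inhibitors by day of culture (horizontal axis), 1 point per array, with the level filter of 4.89 as a dotted line. Ctla2a goes from 10.6 to 4.88 at day 3, Ctla2b steps down once by day 1 and Slpi dips at day 2, while the cystatins Cst3 (brighter row), Cst7 and Cstb stay nearly level; heights of different genes cannot be compared because each has its own probes.

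Ctla2a, an inhibitor of cathepsin L-like enzymes, had the widest range of the 9 genes. Its level was 10.6 at day 0, 8.16 at day 1, 6.30 at day 2, 4.88 at day 3 and 5.69 at day 5. Each array up to day 3 was lower than the one before it, and day 5 lay between days 2 and 3. The steps were -2.44 from day 0 to day 1, -1.86 from day 1 to day 2 and -1.42 from day 2 to day 3, followed by 0.81 from day 3 to day 5. At day 3 the level was 52.5-fold below day 0, and at day 5 it was 29.9-fold below (-4.90). Since the day 3 value sat at the filter level, where array background compresses differences, these folds may be understated. Starting from day 1 instead of day 0, day 5 was still -2.47, which is 5.53-fold lower.

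Ctla2b, the paralog 36221 bases away, took a single step. It stood at 12.7 at day 0, then at 9.79, 9.85 and 9.85 at days 1, 2 and 3, and at 10.6 at day 5. Only the day 0 array was high, and the 3 arrays that followed lay within 0.06 of each other. The step to day 1 was -2.87, or 7.30-fold lower, beside -2.44 for Ctla2a. Day 5 was -2.05 against day 0 (4.14-fold lower) but 0.82 above day 1. The lower level of Ctla2b at day 5 therefore rests on the day 0 array alone, in contrast to Ctla2a. On the array of day 1, 4 of the 9 macrophage markers were also at least 2-fold below day 0, and their part in the step was not tested. Whether the rows of these paralogs share probe sequence was not tested. The rows differed after day 1: from day 1 to day 3 Ctla2a moved by -3.28 and Ctla2b by 0.06.

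The Ctla2 locus lies in a cluster with placental-type cathepsins, and its other genes were mostly not measured. Tpbpb, which lies between Ctla2b and Ctla2a, Tpbpa next to Ctla2a, and the cathepsin genes Ctsj and Ctsll3 further out all had means below the filter. The gene on the far side of Ctla2b, 4930486L24Rik at a distance of 30935 bases, was measured and, like Ctla2b, had its large step by day 1. Its level was 6.99 at day 0 and 5.41, 5.44, 5.47 and 5.28 at days 1, 2, 3 and 5, a difference of -1.71 at day 5. This neighbour was singled out by its position, after its values had been seen.

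Slpi, the secretory leukocyte protease inhibitor, had a different course, with a dip at day 2 in place of a lasting loss. Its level was 7.83 at day 0, 8.31 at day 1, 5.84 at day 2, 7.17 at day 3 and 7.46 at day 5. Day 1 was the highest array and day 2 the lowest, and days 3 and 5 lay between days 0 and 2. The step into day 2 was -2.47 (5.52-fold lower) and the step out of it 1.32 (2.50-fold higher). By day 5 Slpi was only 1.29-fold below day 0 (-0.37), a difference smaller than the yardstick of 0.60. Its lower level is thus mainly a matter of the day 2 array, although from day 1 to day 3 it was also -1.14. In a pattern picked after its values had been seen, a level at least 2-fold below both day 1 and day 3 was found at day 2 for 17 of the 12049 measured genes, or 0.141%, and among the 9 inhibitors for Slpi alone. The gene lies at chr2:164354070-164356507, and its nearest protein-coding neighbours, Svs5 and Matn4, were both below the level filter.

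Granulocyte transcripts moved on the same arrays as Slpi. The mean level of the 11 measured neutrophil markers (of 12 with a row) was 6.99 at day 0, 7.14 at day 1, 6.22 at day 2, 6.55 at day 3 and 6.05 at day 5. Like Slpi, this mean was highest at day 1 and lower at day 2 than at day 3, but unlike Slpi it was lowest at day 5. At day 5, 5 of the 11 were at least 2-fold below day 0 and 0 above. From day 2 to day 3 the median step of the 11 was 0.33, with 9 higher and 1 lower. The largest of these steps were in Mmp8 and S100a8. The alarmin gene S100a8 stood at 8.88, 7.44 and 8.11 on days 1, 2 and 3, and the neutrophil collagenase Mmp8 at 9.08, 7.84 and 8.80. Over the same step S100a9 (0.03), Camp (0.01) and Ltf (0.00) hardly moved. The macrophage marker mean was lowest at day 2 as well (9.85), with 5 of 9 markers at least 2-fold below day 0. The part of these cells in the values of Slpi was not tested.

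In the rows used, the 3 cystatins had the narrowest ranges of the inhibitors, but a second row of Cst3 did not share this. Cstb, the cytosolic stefin B (chr10:78425670-78427622), went through 12.7, 13.0, 13.1, 13.2 and 13.2 at days 0, 1, 2, 3 and 5. Each array was slightly above the one before it, with a total of 0.47 (1.39-fold), which is under the yardstick. Cst3, the secreted cystatin C (chr2:148871722-148875512), read 12.7, 12.7, 12.8, 12.9 and 13.0 in its brighter row, a difference of 0.26 at day 5. A dimmer row of the same gene read 9.27, 9.19, 9.57, 10.2 and 10.5, a difference of 1.24 or 2.36-fold and a range of 1.32. Both rows were lowest at day 1 and highest at day 5, so they share the direction but not the size, and with 1 row alone Cst3 would pass or miss the 2-fold mark. Cstb and the brighter row of Cst3 read between 12.7 and 13.2, high on a scale where Mmp9 reached 13.7 at day 3. Whether differences are compressed at such high levels was not tested. Cst7, the leukocyte cystatin F (chr2:150570415-150578944), stayed low, with 5.52 at day 0, 5.65 at day 1, 5.96 at day 2, 5.81 at day 3 and 5.65 at day 5. Its whole range was 0.44, and so close to the filter level a change would be compressed.

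The 3 serpins each went their own way. Serpinb8, an intracellular serpin that can inhibit furin, had the largest positive difference of the 9 rows used. Its level was 8.33 at day 0, then 9.09, 9.25, 9.25 and 9.27 at days 1, 2, 3 and 5. Day 0 was low and the later 4 arrays lay within 0.19 of each other, so most of the 0.95 (1.93-fold) was present at day 1. The furin gene itself, Furin, was at 10.1 at day 0, 9.46 at day 1 and 10.0 on each of the last 3 arrays.

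Serpinb9, the inhibitor that protects cells from granzyme B (chr13:32997061-33017955), had a trough at day 3. Its level was 7.28, 6.96, 6.44, 6.12 and 6.96 at days 0, 1, 2, 3 and 5. The values went down with each array to day 3, 2.22-fold below day 0 (-1.15), and the day 5 value equalled that of day 1. At day 5 the difference was only -0.32. Ties of this kind come from the median polish that summarises a row, and days 1 and 5 were tied in 9.44% of measured genes. Granzymes A and B, Gzma and Gzmb, were both below the level filter in these cultures, at 4.51 and 3.10 on day 0.

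Serpinb6a, an intracellular inhibitor of cathepsin G and related proteases (chr13:33917918-34002794), showed the least order. It stood at 6.58 on days 0, 2 and 3, at 6.20 on day 1 and at 6.81 on day 5. The range of 0.61 was about the size of the yardstick. Its neighbourhood on chromosome 13 holds the clade B cluster, whose measured genes did not share one course. Serpinb9b, 9459 bases from Serpinb9, went through 8.37, 8.90, 7.39, 6.21 and 7.27, with its low point at day 3 as in Serpinb9. Serpinb1b was lowest at day 3 as well, with 5.41 against 6.20 at day 0. Serpinb6b, on the other side of Serpinb9, was instead lowest at day 0 with 6.95 and highest at day 1 with 8.11.

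At day 5 against day 0, in the rows used, 2 of the 9 inhibitors (Ctla2a and Ctla2b) were at least 2-fold lower. In these rows 0 were at least 2-fold higher and 7 were neither, although the dimmer row of Cst3 was 2.36-fold higher (1.24). Of all measured genes 6.56% were at least 2-fold lower and 6.78% higher. Because Ctla2a was chosen on this contrast, nothing is read from the count of 2. The median difference over the 9 was 0.12, beside 0.00 over all measured genes. At day 3 against day 0, Serpinb9 joined them and 3 of 9 were lower (7.5% of measured genes). Over the single steps between sampled days, both Ctla2 genes were lower from day 0 to day 1 (4.17% of measured genes), and Ctla2a and Slpi from day 1 to day 2 (0.556%). From day 2 to day 3 Ctla2a was lower (3.91%) and Slpi higher (2.08%). Ctla2a and Slpi were chosen for their falls, so nothing is read from the day 3 and step counts either. The shares of measured genes beside them only give the scale. Between days 3 and 5 no inhibitor moved by 2-fold, nor did most of the array (0.274% in either direction), the largest differences being those of Serpinb9 (0.83), Ctla2a (0.81) and Ctla2b (0.76). In the rows used, only 4 of the 9 (Ctla2a, Ctla2b, Slpi and Serpinb9) spanned 2-fold or more over the 5 arrays, as did 25.8% of measured genes. The dimmer row of Cst3 did so too, with a range of 1.32.

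**Figure D2:**
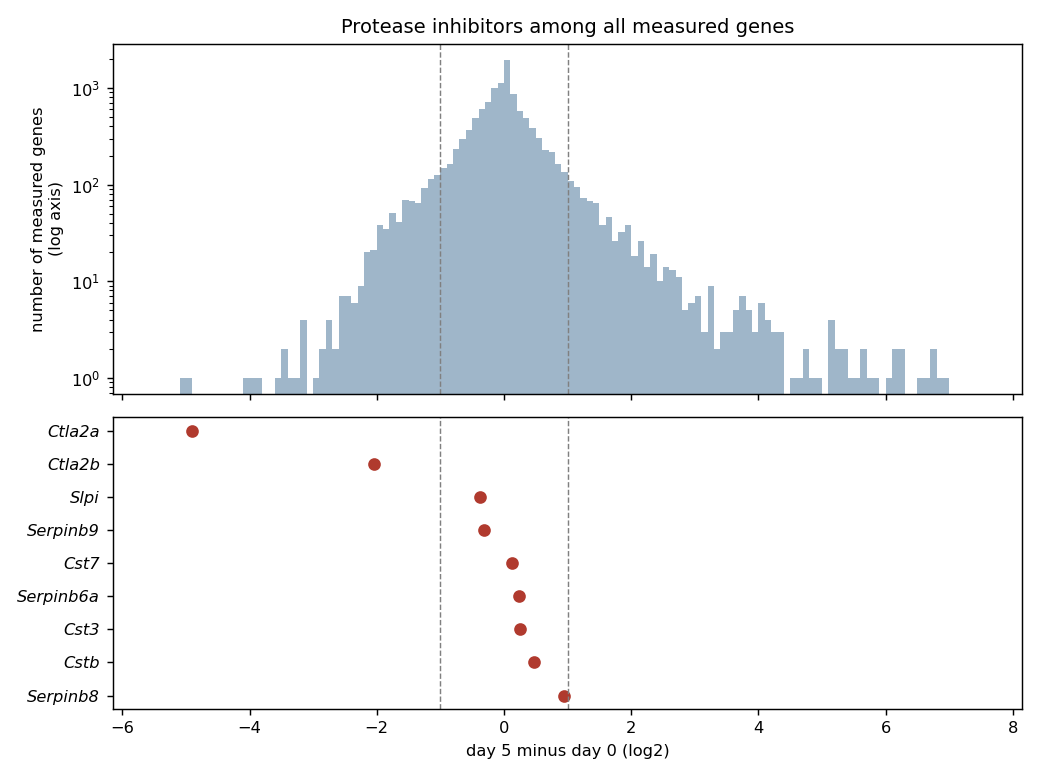
Upper panel: number of measured genes (log axis) by the day 5 minus day 0 difference in log2; lower panel: the 9 protease inhibitors on the same horizontal axis, 1 point each, with dashed lines at 2-fold. Ctla2a at -4.90 and Ctla2b at -2.05 lie outside the lines, and the other 7 (Cst3 by its brighter row) lie between -0.37 (Slpi) and 0.95 (Serpinb8).

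For the 4 inhibitors that spanned 2-fold, the 3 genes with the nearest course were found by the Euclidean distance over the 4 differences from day 0, over all measured genes. All distances share the day 0 array. Genes picked for nearness resemble a member by that choice, so nothing is read from a shared course. Nearest to Ctla2a were F13a1 (distance 1.36), a subunit of coagulation factor XIII, Fads2 (1.96), which desaturates fatty acids, and the fibronectin gene Fn1 (1.97). None of them was close: at day 3, where Ctla2a was at -5.71, F13a1 was at -4.42, Fads2 at -4.41 and Fn1 at -4.17. Ctla2b had closer companions in the transporter Abcc3 (0.73), the carbonyl reductase Cbr2 (0.77) and the Rab3A-interacting Rab3il1 (0.86), each with one large step between days 0 and 1. Nearest to Slpi were Mmp8 (0.90), S100a8 (0.94) and Aif1 (1.03), the last a calcium-binding protein of macrophages, and all 3 were lowest at day 2. The genes nearest to Serpinb9 were the chemokine Cxcl16 (0.22), the signalling adaptor Stap1 (0.25) and the smooth muscle actin Acta2 (0.33).

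**Figure D3:**
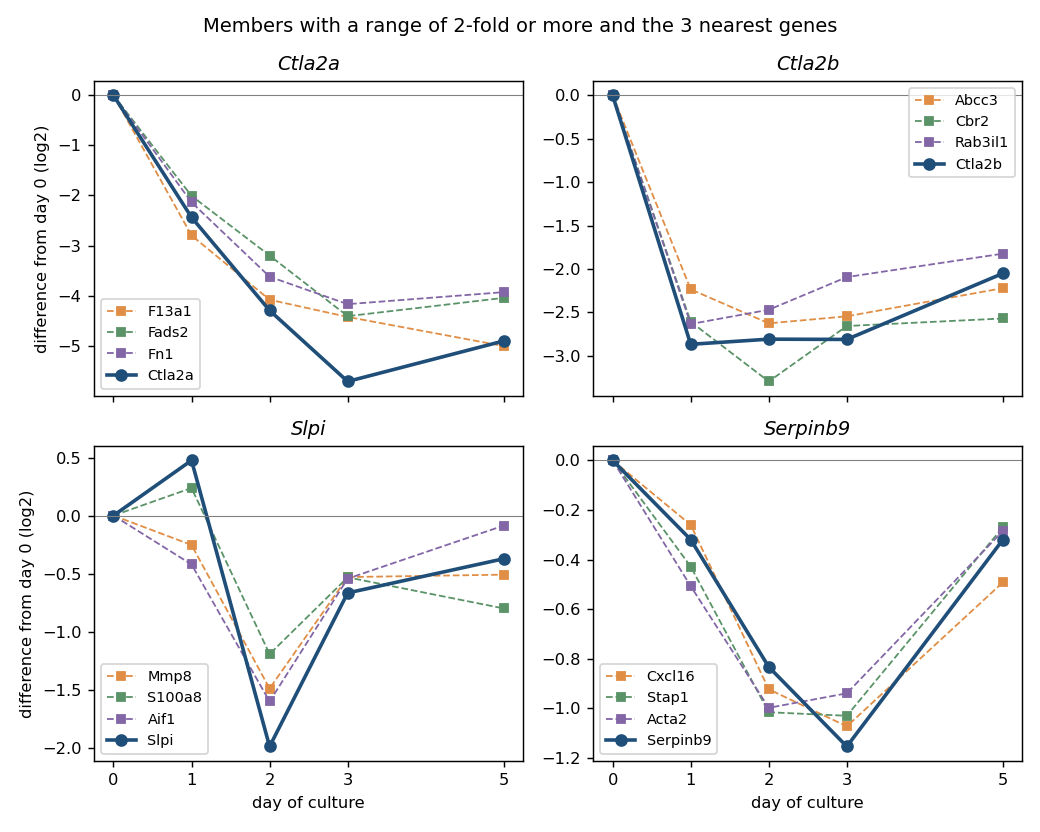
Difference from day 0 in log2 (vertical axis, its range set for each panel) by day of culture (horizontal axis) for the 4 inhibitors with a range of 2-fold or more (solid lines, circles) and their 3 nearest genes (dashed lines, squares), 1 array per day. Ctla2a lies below its nearest genes at day 3 (-5.71 against -4.42 for F13a1), and Slpi lies below Mmp8, S100a8 and Aif1 at day 2.

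The wider families of these inhibitors were mostly low in the cultures. Of 26 other genes with a row that were listed by symbol as cystatin family, 3 were measured (Ahsg, Cstad and Cstl1). Of these, 0 were higher and 0 lower at day 5. The choice by symbol took in Cstad, which is not a cystatin. Of 51 other serpins 9 were measured, of which 1 was at least 2-fold higher and 1 lower (median -0.19). The higher one was Serpind1, heparin cofactor II, an inhibitor of thrombin, at 4.61, 4.87, 6.26, 7.53 and 7.19, a difference of 2.58. The lower one was Serpinb9b (-1.09). Of 40 other genes of the small WAP, Kunitz and Kazal type, to which Slpi belongs by its WAP domains, 9 were measured, 1 was higher and 0 lower (median 0.00). The higher one was Spint2, a Kunitz inhibitor of matriptase, at 4.64, 6.95, 7.15, 7.90 and 7.26, a difference of 2.61. Serpind1 at days 0 and 1 and Spint2 at day 0 were below the filter level, so both passed it through their later days and these differences may be understated. Wfdc17, a WAP protein like Slpi, was also lowest at day 2, with 7.42, 6.94, 5.88, 6.43 and 6.77. Of 18 other inhibitors 4 were measured and none passed 2-fold at day 5, among them the calpain inhibitor Cast at 0.34 and the metalloprotease inhibitor Timp2 at -0.03.

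The proteases that these inhibitors act on were set beside them. Among cysteine proteases, 2 of 10 measured passed 2-fold upwards at day 5 and 1 downwards (median -0.14). Ctsk climbed from 6.54 to 13.3 (6.75) and Ctsf from 5.99 to 7.84 (1.86), while Cstb differed by 0.47 and Cst3 by 0.26 in its brighter row and 1.24 in its dimmer one. Cathepsin C, Ctsc, a target of cystatin F, was lower (-1.54), nearly all of it by day 1 (11.7 at day 0 and 10.2 at day 1), and Cst7 was at 0.12. Cathepsin L, Ctsl, whose propeptide Ctla2a resembles, was at -0.79 and lowest at day 3 (10.7), as were Ctla2a and also Ctsc. A link between these courses was not tested. Legumain (Lgmn) was at -0.77, Ctss at -0.23 and Ctsb at -0.04. Of 14 measured serine proteases 1 was higher and 3 lower (median 0.18). Higher was matriptase, St14 (1.10), and lower were urokinase, Plau (-2.34), and the granulocyte proteases Elane (-1.27) and Prtn3 (-1.20). At day 5 Elane (4.52) and Prtn3 (4.45) were below the filter level, so their differences may be understated. Elane, the elastase that Slpi blocks, was at 5.79, 5.78, 4.92, 5.30 and 4.52. Its day 2 was below days 1 and 3 as for Slpi, but lay close to the filter level. Ctsg was at -0.51.

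**Figure D4:**
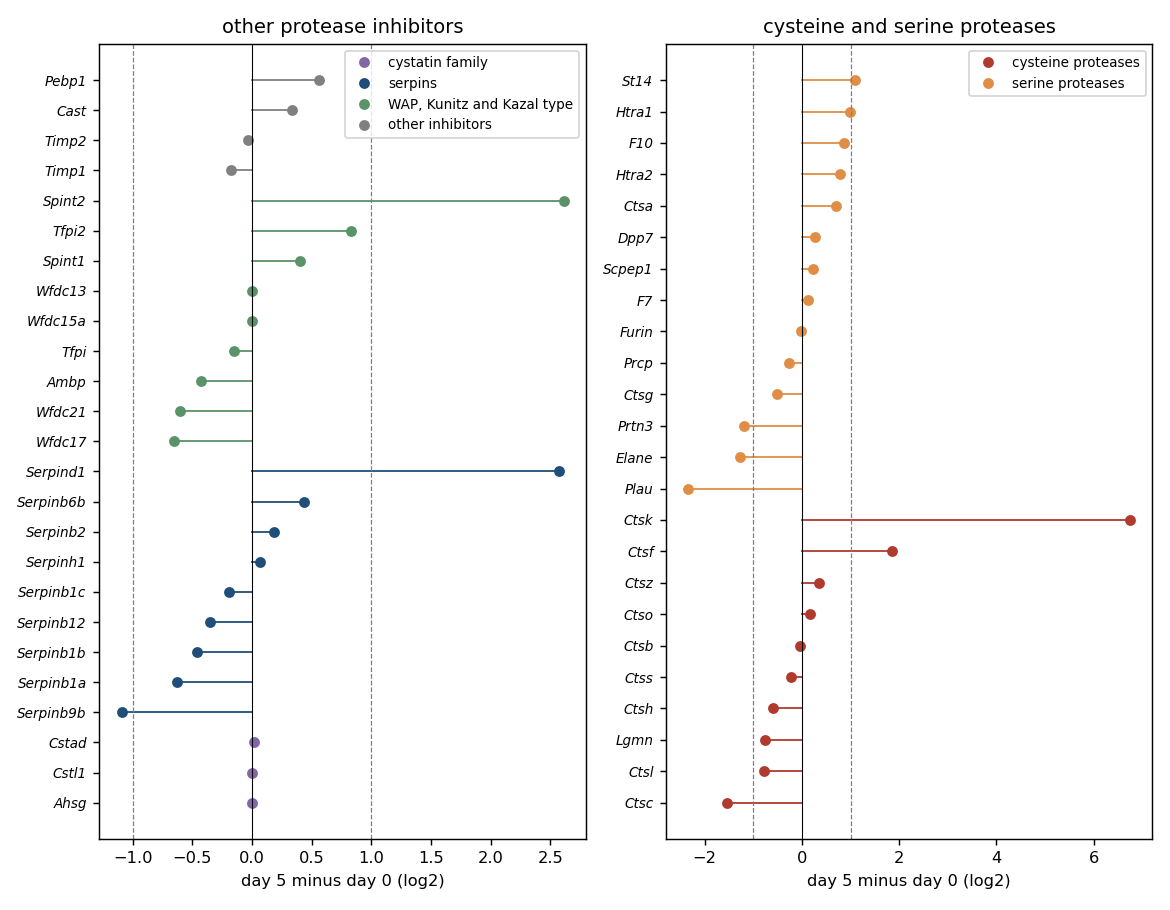
Day 5 minus day 0 difference in log2 (horizontal axis) for the measured genes of the other inhibitor families (left) and of the cysteine and serine proteases (right), coloured by family, with dashed lines at 2-fold; the panels have different horizontal scales. Serpind1 (2.58) and Spint2 (2.61) stand out on the left, and Ctsk (6.75) on the right. The cystatin family was listed by symbol and includes Cstad, which is not a cystatin.

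Markers of further cell types were checked on the same arrays. The mean of the 3 measured progenitor markers (of 5 with a row) lay between 5.50 and 5.85 on the 5 arrays, and 1 of 7 mast cell and basophil markers, Kit, was measured. The megakaryocyte list had 3 of 4 measured, with a mean of 8.98 at day 0 and 8.41 at day 1, and its platelet chemokine Ppbp was at -1.84 at day 5. Among 3 measured endothelial markers, Cdh5 was at -1.29 and Vwf at 1.87. The stromal proteoglycan Dcn was 3.26 higher at day 1 than at day 0 and Col1a1 was at 0.19 at day 5. Lymphoid lists were low, with 2 of 9 T and NK cell markers and 0 of 4 B cell markers measured, and 3 of 5 dendritic markers were. The part of these cells in the values of the inhibitors was not tested.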

How the data were processed

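The deposited table holds log2 values of 41345 rows on 5 arrays which, per the submitters' processing notes, were made by the authors in R 3.4.0 with oligo's RMA. That method removes background, equalises the arrays by quantiles and summarises probes by median polish, so a shift of all genes cannot be seen and exact ties occur. For the summary level, probe annotation and genome build behind the values: not given in the sources used here. Arrays were assigned to days by the time in the labels. In the platform annotation 23521 rows named 1 gene, 1814 named several, and 16010 are unnamed here. Rows of the last 2 kinds were left out, including one shared by Serpinb6a and 1110046J04Rik. The row with the highest mean stood for a gene. The Entrez identifiers of all 9 members gave the same symbol in RefSeq (GRCm38.p6), the source of coordinates and promoters.

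Differences of single arrays were counted at 2-fold, with no test. Members and lists were chosen with earlier results of these data known. The text names all members, up to 3 measured genes each way per list past 2-fold, a fixed set of target proteases, and the 3 nearest genes of members spanning 2-fold; Serpinb1b, Serpinb6b, Wfdc17, Cast, Timp2, Furin, the neighbours and the markers beyond these were named after their values were seen. Promoters were aligned globally with free end gaps (Biopython 1.88). Python 3.11.15, numpy 2.4.6, pandas 2.3.3 and matplotlib 3.10.9 were used, and the counting was tested on simulated data. Alternatives covered scaling, rows, days, size and level filter.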

Additional observations from a re-analysis of the deposited data

How the results depend on the processing

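The 9 inhibitors gave 60 differences between a late and an early day under the alternatives of scaling, rows, days and level filter. Of these, 54 moved by less than 0.60, 5 moved further and 1 changed sign. The 54 say little about stability, because most could hardly move. A level filter leaves a value as it is, and centring shifts all genes alike (by -0.077 or 0.038). Averaging rows can change only Cst3, the one member with a second row of its own. The exceptions came from the choice of days. With day 1 in place of day 0, Ctla2b stood at 0.82, Ctla2a at -2.47 and Serpinb8 at 0.19, and the number lower was 1. Ending at day 3, Ctla2a was at -5.71, Ctla2b at -2.81 and Serpinb9 at -1.15. Counted at 1.5-fold, 1 inhibitor was higher (Serpinb8), against 1605 higher and 1686 lower among all measured genes and 10 higher and 11 lower in the other inhibitor and protease lists, which had 5 each way at 2-fold. At 4-fold these were 230 and 93 genes, and 3 and 1 in the lists. With the level filter at the 75th percentile of rows (7.11) they were 511 and 501, and 1 and 3, as fewer genes were counted. Centring the arrays on 12 reference genes shifted every day 5 difference by -0.077, with 737 genes higher and 902 lower, and left both Ctla2 genes as the inhibitors past 2-fold. Averaging the rows of a gene put Cst3 at 0.75. No paired analysis was possible because each day has 1 array. Depth of signal limits Cst7 and the late values of Ctla2a, which lie near background.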
